A study of Mus musculus with 6 samples.

Results

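The 10 genes described here encode the 5 NF-kB subunits (NFKB1, NFKB2, REL, RELA and RELB) and 5 inhibitors of the pathway (NFKBIA, NFKBIB, NFKBIE, NFKBIZ and TNFAIP3). They were taken by symbol from the count tables, where all 10 were listed among 17144 genes. RNA-seq was run on SaOS2, by its label a human osteosarcoma cell line, and the study asks, by its title, what a compound called DDTC(I) does to the messages of these cells. Each of the 6 libraries is titled with C or D and a number from 1 to 3, which gives 3 libraries per group. The letters, the dose and the time of treatment are not explained in the labels, so all differences are stated as D minus C without saying which group received the compound. Separate cultures are not stated for the replicates, and the p-values then measure only the spread between these libraries, which may be technical.

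NF-kB is a family of transcription factors that bind DNA as pairs of subunits. In the classical pathway, inhibitors of the IkB class hold pairs such as RELA with p50, the product of NFKB1, in the cytoplasm until the IkB kinase marks the inhibitor for degradation. In the alternative pathway, the kinase encoded by MAP3K14 leads to processing of the NFKB2 product from p100 to p52, which pairs with RELB. Several of these genes, among them NFKBIA, TNFAIP3, NFKB2 and RELB, are themselves known targets of NF-kB, so that the pathway makes its own brakes. In osteoblast-lineage and osteosarcoma cells the pathway is known for control of inflammatory and survival genes.

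Total counts per library ranged from 18446443 to 20602771, and each member had between 39 and 2251 counts in every library. The label of the line was checked against osteoblast genes. ALPL, the alkaline phosphatase for which SaOS2 is known, had 8 to 15 counts per library. Of 8 osteoblast genes, 5 stayed below 1 CPM, the count on a common scale of library size, in all 6 libraries. These values go against the label, and the cells are named here by their label only. D replicate 3 stood apart from the other D libraries along gene length, and the results that rest on it are given with and without it. The length trend is shown for D replicate 3 only. Counts differed most between D replicates 2 and 3 (chi-square per degree of freedom 96.0). They differed less between D replicates 1 and 3 (38.9) and between 1 and 2 (21.7). Below, CPM values carry TMM scaling, a factor per library that centres most genes.

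Levels can be compared between genes only per length, for which the deposited FPKM values were used (counts divided by gene length and by the library total). RELA, the main activating subunit of the classical pathway, had the highest level of the 10 genes in all 6 libraries, with 39.2 ± 1.95 FPKM in C and 42.8 ± 4.90 in D (SD, n = 3). REL, the subunit known mostly from lymphoid cells, had the lowest, with 0.986 ± 0.277 FPKM in C and 0.5001 ± 0.286 in D. In C, the order below RELA was NFKBIA, NFKBIB, NFKB2, NFKB1, NFKBIE, RELB, TNFAIP3 and NFKBIZ, with the ranges of neighbours overlapping only for NFKB1 and NFKBIE. In D, RELB stood above NFKBIE and NFKB1 and below NFKB2. In D the ranges of 5 pairs of neighbours overlapped: NFKBIA with NFKBIB, NFKBIB with NFKB2, NFKBIE with NFKB1, NFKB1 with TNFAIP3, and TNFAIP3 with NFKBIZ.

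**Figure D1:**
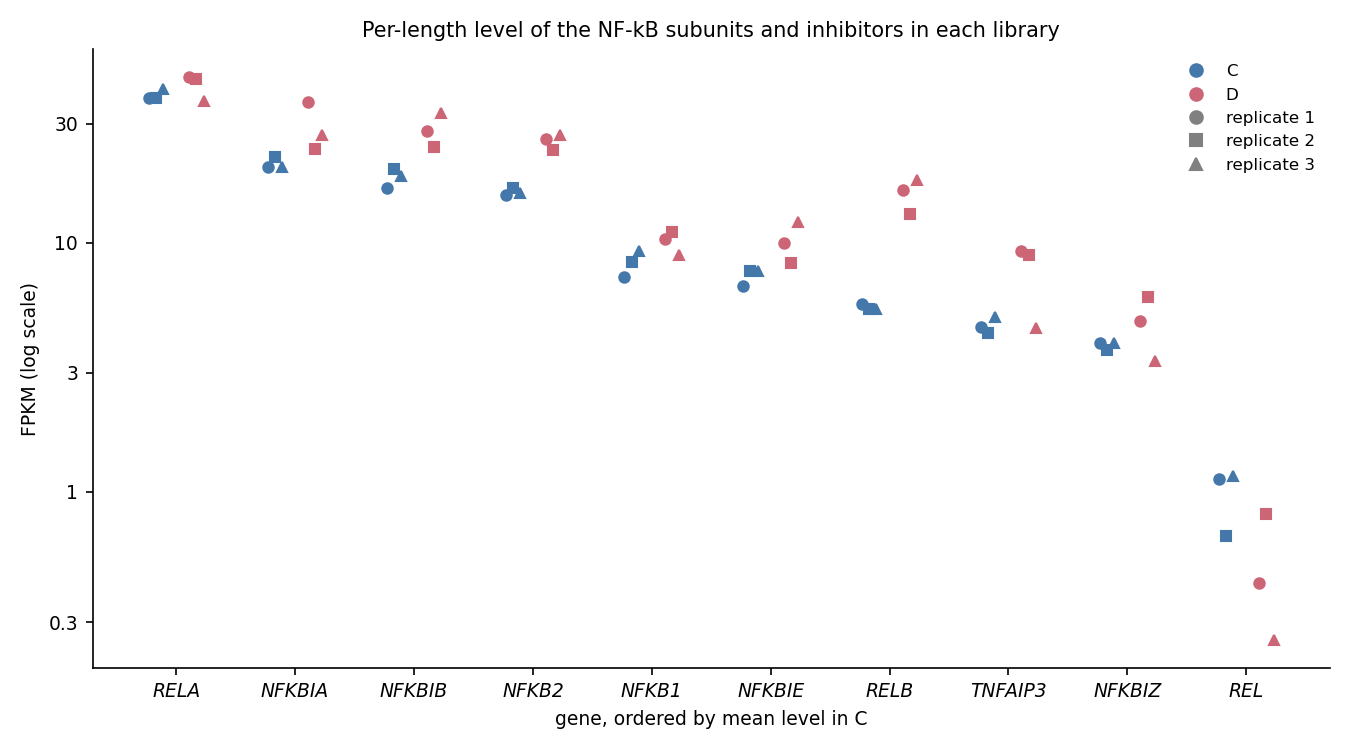
FPKM on a log scale for each of the 10 genes in each of the 6 libraries, with C in blue, D in red and the replicate number as the shape of the point. RELA is highest and REL lowest in every library, and RELB moves from 5.49 FPKM in C, below NFKB1, to 15.7 FPKM in D, above it.

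Of the 10 genes, 7 rose in D: the subunits RELB, NFKB2 and NFKB1 and the inhibitors NFKBIA, NFKBIB, NFKBIE and TNFAIP3. None fell by the edgeR test, in which 0 members were lower at an unadjusted p under 0.05 too; DESeq2 called 1 lower (REL) and limma-voom 0. All 10 members passed the filter on low counts. Of all 12682 genes tested, 26.8% were called higher in D and 27.7% lower. The median log2 fold change of the members was 0.63, and that of all tested genes −0.02. In normalized CPM, every D library lay above every C library in 8 members, which held for 30.6% of all tested genes, and REL and NFKBIZ were the members whose groups overlapped. The count of members called higher was 4 without C replicate 1, 5 without D replicate 1 and 9 without D replicate 3. Over all genes, those fits called 2627 of 12850, 2881 of 12832 and 3868 of 12830 higher. In the mixed RNA of a library, fewer cells of a type and less RNA per cell cannot be told apart.

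**Figure D2:**
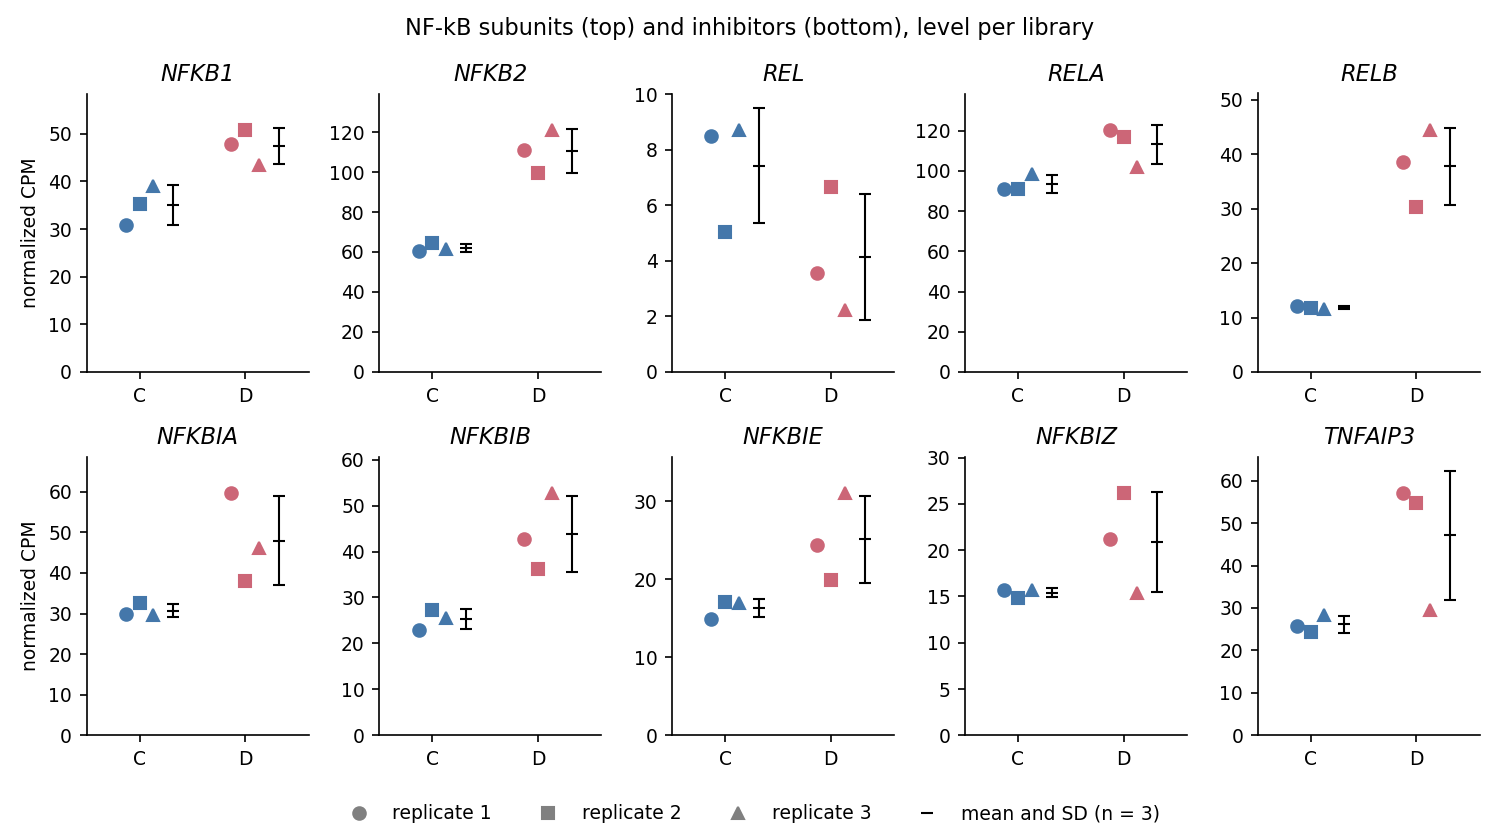
Normalized CPM of each gene in the 3 C and 3 D libraries, on axes that start at 0, with the mean and SD at the right of each group. RELB and NFKB2 show the widest gaps between the groups, and TNFAIP3 and NFKBIZ have D replicate 3 (triangle) at or near the C level.

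RELB, the partner of p52 in the alternative pathway, had the largest change of the family. Its level was 12.2, 11.7 and 11.6 CPM in C replicates 1 to 3 and 38.6, 30.4 and 44.5 CPM in D. The lowest D library was far above the highest C library. RELB differed by 1.67 ± 0.15 (SE) on the log2 scale, or 3.19-fold, with an adjusted p of 6.7e-05 by edgeR (quasi-likelihood test, Benjamini-Hochberg). Without D replicate 3, its highest library, the difference was 1.55 (adjusted p = 2.1e-07). RELB was also the only member that passed both the test and a 2-fold change, which 8.37% of all tested genes did in the upward direction.

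NFKB2, which encodes p100 and its product p52, was at 60.5, 64.3 and 61.4 CPM in C and at 111, 99.4 and 121 CPM in D. The groups did not overlap, and D replicate 3 was the highest library. Its difference was 0.83 ± 0.11 on the log2 scale (adjusted p = 0.00032, edgeR), and 0.77 without D replicate 3. RELB, NFKB2 and the inhibitor NFKBIB were called higher under all 18 alternative settings, with RELB between 1.35 and 1.84, NFKB2 between 0.64 and 0.94 and NFKBIB between 0.60 and 0.95 on the log2 scale.

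NFKB1, which encodes p105 and its product p50, had 30.8, 35.3 and 39.1 CPM in C and 47.9, 50.8 and 43.4 CPM in D. On this scale the groups did not overlap, with 39.1 CPM as the highest C value and 43.4 CPM as the lowest D value. At 0.43 ± 0.13 on the log2 scale, the rise passed the test (adjusted p = 0.018, edgeR). It was no longer called without C replicate 1 (0.34, adjusted p = 0.087), without C replicate 2 (0.43, adjusted p = 0.063), without D replicate 1 (0.42, adjusted p = 0.060) or with library size only (0.28, adjusted p = 0.10). The call was also lost in the 3 fits on FPKM (adjusted p = 0.098 to 0.13) and in the fit blocked by replicate number (0.44, adjusted p = 0.060), and it held in 10 of 18 alternative settings.

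RELA had 90.8, 91.2 and 98.5 CPM in C and 120, 117 and 102 CPM in D. All 3 D libraries lay above the C libraries, with D replicate 3 close to C. With a log2 fold change of 0.28 ± 0.10, RELA missed the threshold (adjusted p = 0.051, edgeR). It passed without D replicate 3 (0.36, adjusted p = 0.0054) and without D replicate 2 (0.29, adjusted p = 0.046), and with library size only it was 0.13 (adjusted p = 0.37).

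REL was the only member with a negative difference. It had 8.503, 5.04 and 8.72 CPM in C and 3.55, 6.66 and 2.21 CPM in D, from 39 to 184 counts per library. D replicate 2 lay above C replicate 2, so the groups overlapped. REL, with a log2 fold change of −0.83 ± 0.37, missed the threshold (adjusted p = 0.086, edgeR). It was −1.32 without D replicate 2 (adjusted p = 0.0054), −1.05 without C replicate 2 (adjusted p = 0.049) and −0.52 without D replicate 3 (adjusted p = 0.097).

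The make-up of the subunit messages differed between the groups. NFKB2 and RELB together held 31.4%, 31.8% and 29.1% of the summed subunit FPKM in C and 42.7%, 39.1% and 49.3% in D. The lowest D share exceeded the highest C share. Without D replicate 3 the mean D share was 40.9%, against 43.7% with it. The ratio of RELB to NFKB1, in FPKM, was 0.670 ± 0.0981 in C and 1.59 ± 0.420 in D. It was below 1 in every C library and 1.58, 1.17 and 2.01 in D replicates 1 to 3. The ratio of RELB to RELA was 0.141 ± 0.00922 in C and 0.375 ± 0.0991 in D, with 0.355, 0.287 and 0.482 in D replicates 1 to 3. D replicate 3, which stood apart along gene length, had the highest D value of the share and of each ratio given here. The ratio of NFKB2 to NFKB1 was 1.94 ± 0.217 in C and 2.56 ± 0.458 in D, and here D replicate 2, at 2.13, lay below C replicate 1, at 2.14.

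Of the 5 inhibitors, 4 rose, with log2 fold changes from 0.62 (NFKBIE) to 0.85 (TNFAIP3). NFKBIA, the IkB alpha protein that is degraded and resynthesised in each round of classical signalling, had 29.8, 32.6 and 29.7 CPM in C and 59.7, 38.1 and 46.1 CPM in D. The groups did not overlap, and D replicate 1 was the highest. The log2 fold change was 0.64 ± 0.16 (adjusted p = 0.010, edgeR), and 0.69 without D replicate 3. The call was lost in the unfiltered fit on FPKM (0.45, adjusted p = 0.057).

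NFKBIB, which encodes IkB beta, had 23.0, 27.4 and 25.5 CPM in C and 42.7, 36.2 and 52.7 CPM in D. All D libraries lay above all C libraries, and the log2 fold change was 0.79 ± 0.15 (adjusted p = 0.0027, edgeR). It was 0.65 without D replicate 3 (adjusted p = 0.00037, edgeR) and 0.95 without D replicate 2. NFKBIE, which encodes IkB epsilon, had 15.0, 17.1 and 16.96 CPM in C and 24.4, 19.9 and 31.0 CPM in D. Its groups did not overlap either, and its log2 fold change of 0.62 ± 0.17 passed the edgeR test (adjusted p = 0.013). Leaving out D replicate 3 gave 0.45 (adjusted p = 0.0083, edgeR), and leaving out D replicate 2 gave 0.80. The call was lost without C replicate 1 (0.56, adjusted p = 0.064) and in the unfiltered fit on FPKM (adjusted p = 0.057).

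TNFAIP3 encodes A20, a ubiquitin-editing enzyme that acts upstream of the IkB kinase. It had 25.8, 24.4 and 28.3 CPM in C and 57.1, 54.8 and 29.6 CPM in D. D replicates 1 and 2 were about alike, while D replicate 3 lay just above the highest C library. The log2 fold change was 0.85 ± 0.23 (adjusted p = 0.013, edgeR). It was 1.11 without D replicate 3, and the call was lost without D replicate 1 (0.69, adjusted p = 0.059) and without C replicate 1 (0.83, adjusted p = 0.051). The 3 fits on FPKM did not call it either (adjusted p = 0.061 to 0.11).

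NFKBIZ encodes IkB zeta, a nuclear member of the class that acts on gene transcription and does not hold subunits in the cytoplasm. It had 15.7, 14.8 and 15.7 CPM in C and 21.2, 26.2 and 15.3 CPM in D. D replicate 3 fell within the C range and the other 2 D libraries lay above it. NFKBIZ, with a log2 fold change of 0.44 ± 0.18, missed the threshold (adjusted p = 0.072, edgeR). Without D replicate 3 it was 0.63 and passed (adjusted p = 0.00051), and it also passed after correction for gene length (0.49, adjusted p = 0.024).

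The summed FPKM of the 5 inhibitors was 54.9 ± 2.72 in C and 80.1 ± 8.95 in D, and that of the 5 subunits 69.9 ± 2.87 in C and 94.6 ± 4.02 in D. The ratio of the inhibitor sum to the subunit sum was 0.768, 0.831 and 0.756 in C and 0.898, 0.759 and 0.878 in D. The D libraries spanned the C range from near its lowest value to above its highest, and the group means of 0.785 and 0.845 differed by less than the SD of D, 0.0749. FPKM is scaled to the library total without TMM factors. On that scale 5 members, not 8, had every D library above every C library: RELB, NFKB2, NFKBIA, NFKBIB and NFKBIE. The share of all genes on the FPKM scale was not counted, so the drop is not read as particular to the members. With library size only, the median log2 fold change of all tested genes was −0.17. D replicate 3 lay below the highest C library for RELA (37.1 against 41.4 FPKM), NFKB1 (8.89 against 9.29) and TNFAIP3 (4.55 against 5.04).

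**Figure D3:**
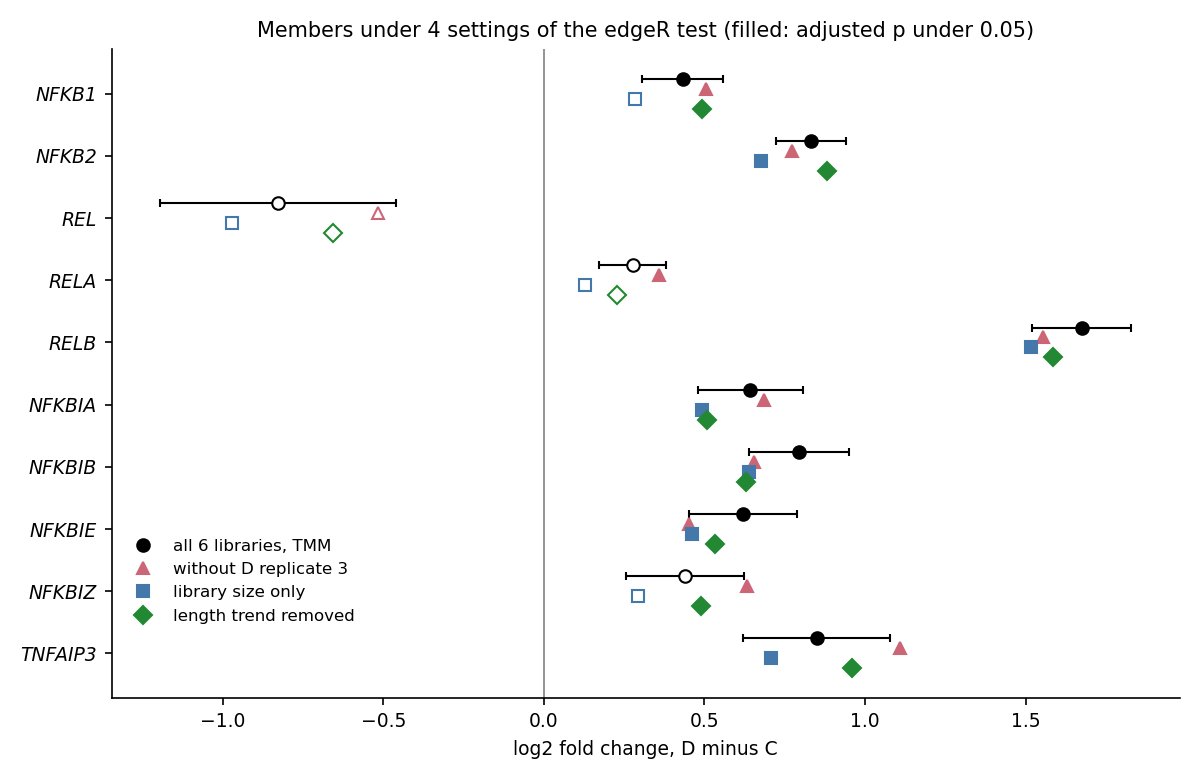
Log2 fold change, D minus C, of each gene in 4 edgeR fits, with the SE drawn for the fit on all 6 libraries; filled points have an adjusted p under 0.05. RELB (1.67), NFKB2 (0.83), NFKBIA (0.64), NFKBIB (0.79), NFKBIE (0.62) and TNFAIP3 (0.85) are filled in all 4 fits, while NFKB1 loses its call with library size only and RELA, NFKBIZ and REL lack a call on all 6 libraries.

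In the members as in the whole table, D replicate 3 tended to lie lower against the other D libraries in longer genes. Members of like length still differed. D replicate 3 minus the mean of D replicates 1 and 2, in log2 CPM, was 0.42 for NFKBIB, 0.38 for RELB and 0.49 for NFKBIE, whose lengths implied by the FPKM values are 1460, 2273 and 2344 bp. It was −0.62 for NFKBIZ (4194 bp), −0.92 for TNFAIP3 (5945 bp) and −1.10 for REL (7935 bp). NFKBIA (1559 bp, −0.05) and RELA (2517 bp, −0.22) were lower in D replicate 3 than the median gene of their length. NFKB2 (4093 bp, 0.21) lay above the median of its length class, 0.01, and NFKB1 (4459 bp, −0.19) and NFKBIZ below it. TNFAIP3 was also below the median of its class, −0.17. Over the 10 members the correlation of this difference with log2 length was −0.79, and over all 12682 tested genes it was −0.62; the points share the same 3 libraries. The median difference of all tested genes went from 0.49 in genes of up to 1500 bp to −0.38 in genes over 6000 bp. The D minus C difference ran with length too. Its median was 0.25 in genes of up to 1500 bp and −0.20 in genes over 6000 bp. After the trend with gene length was removed from each library, 8 members were called higher and 0 lower, against 32.9% of all genes called higher. The changes of NFKB2 (0.88), TNFAIP3 (0.96), NFKB1 (0.49) and NFKBIZ (0.49) were larger there. Those of RELB (1.59), NFKBIB (0.63), NFKBIA (0.51), NFKBIE (0.53) and RELA (0.23) were smaller, and REL (−0.66) was less negative. The FPKM share and ratios given above were not corrected for this trend.

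**Figure D4:**
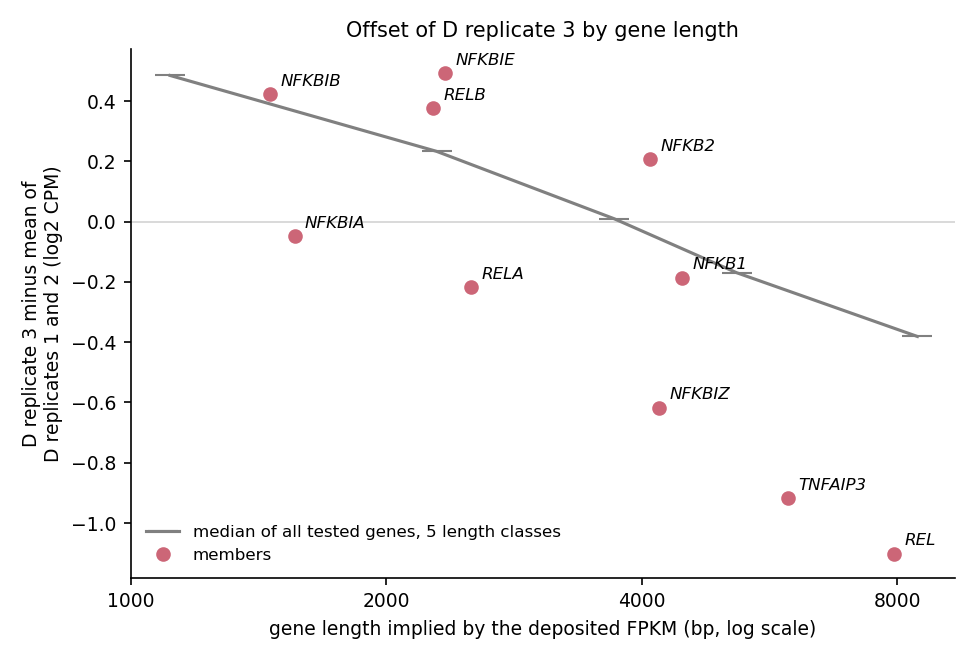
For each member, the log2 CPM of D replicate 3 minus the mean of D replicates 1 and 2, against gene length on a log scale; the grey line joins the medians of all tested genes in 5 length classes. The members run from 0.42 at 1460 bp (NFKBIB) to −1.10 at 7935 bp (REL), and TNFAIP3 (−0.92) and NFKBIZ (−0.62) lie below the line.

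Other genes of the pathway, from lists of 72 symbols in all, went both ways. Of the 68 that were tested, 17 rose and 10 fell, where 26.8% and 27.7% of all tested genes did, and their median log2 fold change was 0.16. Without D replicate 3, 25 rose and 10 fell, where 30.1% of all genes were called higher. After correction for gene length 30 rose and 12 fell, where 32.9% of all genes were higher, and scaling by the library total alone gave 14 higher and 19 lower. Of 6 other IkB-like or NF-kB-binding genes, 1 rose and 2 fell, and leaving out D replicate 2 or D replicate 3 gave 2 in each direction. Over all genes, those fits called 3888 and 3868 higher and 3879 and 3837 lower. The 2 that fell, BCL3 and NFKBID, encode nuclear IkB proteins of the same class as NFKBIZ. BCL3 fell from 23.97, 20.98 and 20.94 CPM in C to 11.1, 11.1 and 12.7 CPM in D (−0.92 ± 0.12, adjusted p = 0.00037, edgeR). NFKBID, at a low level, fell from 3.18 ± 0.367 to 1.68 ± 0.433 CPM (−0.93 ± 0.23, adjusted p = 0.0083). NFKBIL1, named for its likeness to the IkB proteins, rose from 29.1 ± 5.04 to 52.9 ± 9.13 CPM (0.86 ± 0.17).

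The IkB kinase has 2 catalytic subunits and 1 regulatory subunit, and the regulatory subunit moved most. IKBKG, which encodes the regulatory subunit NEMO, had 14.9, 16.96 and 17.7 CPM in C and 30.9, 32.6 and 29.8 CPM in D, a log2 fold change of 0.91 ± 0.12 (adjusted p = 0.00029, edgeR). IKBKB, a catalytic subunit gene, rose by 0.32 ± 0.11 (adjusted p = 0.039). That call was lost with library size only (0.17) and when any 1 of the C libraries or D replicate 1 was left out (0.27 to 0.37). CHUK, the other catalytic subunit gene, had a log2 fold change of 0.24 ± 0.10 (adjusted p = 0.078).

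Of 13 genes for kinases of the pathway and their partner proteins, 4 rose and 5 fell, where 26.8% and 27.7% of all tested genes did. IKBKG, TAB1, TAB2, TAB3 and TANK are on this list as partners and not as kinases. After correction for gene length 6 rose and 5 fell, where 32.9% of all genes were called higher. Without C replicate 1, C replicate 3 or D replicate 1 the counts were 3 and 3. Over all genes, those fits called 2627, 2746 and 2881 higher and 2780, 2854 and 2824 lower. Leaving out D replicate 3 gave 6 higher and 4 lower, where 30.1% of all genes were called higher. MAP3K14, which encodes the NF-kB-inducing kinase of the alternative pathway, fell from 66.3 ± 4.75 to 48.6 ± 8.43 CPM (−0.45 ± 0.14, adjusted p = 0.026, edgeR). Its call was lost without C replicate 1 (−0.46), C replicate 3 (−0.40) or D replicate 1 (−0.48). TAB2, an adaptor of the TAK1 kinase, fell from 128 ± 8.33 to 72.4 ± 18.7 CPM (−0.83 ± 0.17), MAP3K3 from 114 ± 2.81 to 71.8 ± 10.6 CPM (−0.66 ± 0.12) and MAP3K8 from 3.36 ± 0.515 to 1.37 ± 0.253 CPM (−1.28 ± 0.22). The IkB-kinase-related genes TBK1 (0.59 ± 0.12) and IKBKE (0.68 ± 0.13) rose. TAB1, the fifth gene that fell, was at −0.31.

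Of 27 tested receptor and adaptor genes, 7 rose and 2 fell, where 26.8% and 27.7% of all tested genes did. The split moved with the scaling, as did that of all genes. Scaling by the library total alone gave 5 higher and 9 lower, where 2586 and 4449 of all 12682 tested genes were. Correction for gene length gave 13 higher and 5 lower, where 4169 and 3854 of all tested genes were. The counts were 7 and 1 when C replicate 3 was left out, and 10 and 3 when D replicate 3 was. Those of all genes were 2746 and 2854, and 3868 and 3837. SQSTM1, which encodes the signalling scaffold and autophagy receptor p62, rose from 489 ± 13.7 to 2518 ± 240.4 CPM (2.36 ± 0.12). IRAK2, a kinase-like adaptor of interleukin-1 and Toll-like receptors, rose from 16.4 ± 0.489 to 36.9 ± 0.540 CPM (1.17 ± 0.10), and TNFRSF12A, the receptor of the cytokine TWEAK, from 193 ± 9.01 to 418 ± 59.5 CPM (1.11 ± 0.13). RIPK1, a kinase of the TNF receptor complex, rose from 11.8 ± 2.14 to 24.3 ± 5.63 CPM (1.05 ± 0.20). TNFRSF11A, which encodes RANK, fell from 10.8 ± 0.973 to 4.55 ± 0.455 CPM (−1.24 ± 0.14), and BIRC3, a ubiquitin ligase of the receptor complex, by 0.43. The call of BIRC3 was lost without C replicate 3 (−0.40) and without D replicate 1 (−0.39). TNFRSF1B, CD40 and TLR2 were below the filter on low counts.

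Of 7 genes of the ligase that ubiquitinates IkB proteins and its partners, 1 rose and 0 fell. Of all tested genes, 26.8% rose and 27.7% fell, and 32.9% rose after correction for gene length. At an unadjusted p under 0.05 the counts of the 7 genes in edgeR were also 1 and 0. Without D replicate 2, and after correction for gene length, 3 rose and 0 fell. Over all genes, the fit without D replicate 2 called 3888 of 12808 higher and 3879 lower. DESeq2 and limma-voom each called 1 and 0 of the 7 genes. The gene that rose was UBE2D3, a ubiquitin-conjugating enzyme, from 135 ± 6.002 to 242 ± 31.0 CPM (0.84 ± 0.12). Of 15 tested genes for linear ubiquitin chains, deubiquitinases and A20 partners, 4 rose and 1 fell, against 7 and 3 without D replicate 2 and 7 and 0 after correction for gene length. RBCK1, a subunit of the linear ubiquitin ligase, rose from 70.5 ± 1.95 to 144 ± 23.6 CPM (1.03 ± 0.13). The A20-binding genes TAX1BP1 (0.63 ± 0.10) and TNIP1 (0.54 ± 0.10) and SPATA2, a partner of the deubiquitinase CYLD (0.59 ± 0.12), rose as well. PDLIM2, a ligase for RELA, fell by 0.64, and its call was lost when any 1 of the C libraries or D replicate 1 was left out (−0.58 to −0.68) and with length trends removed (−0.49).

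**Figure D5:**
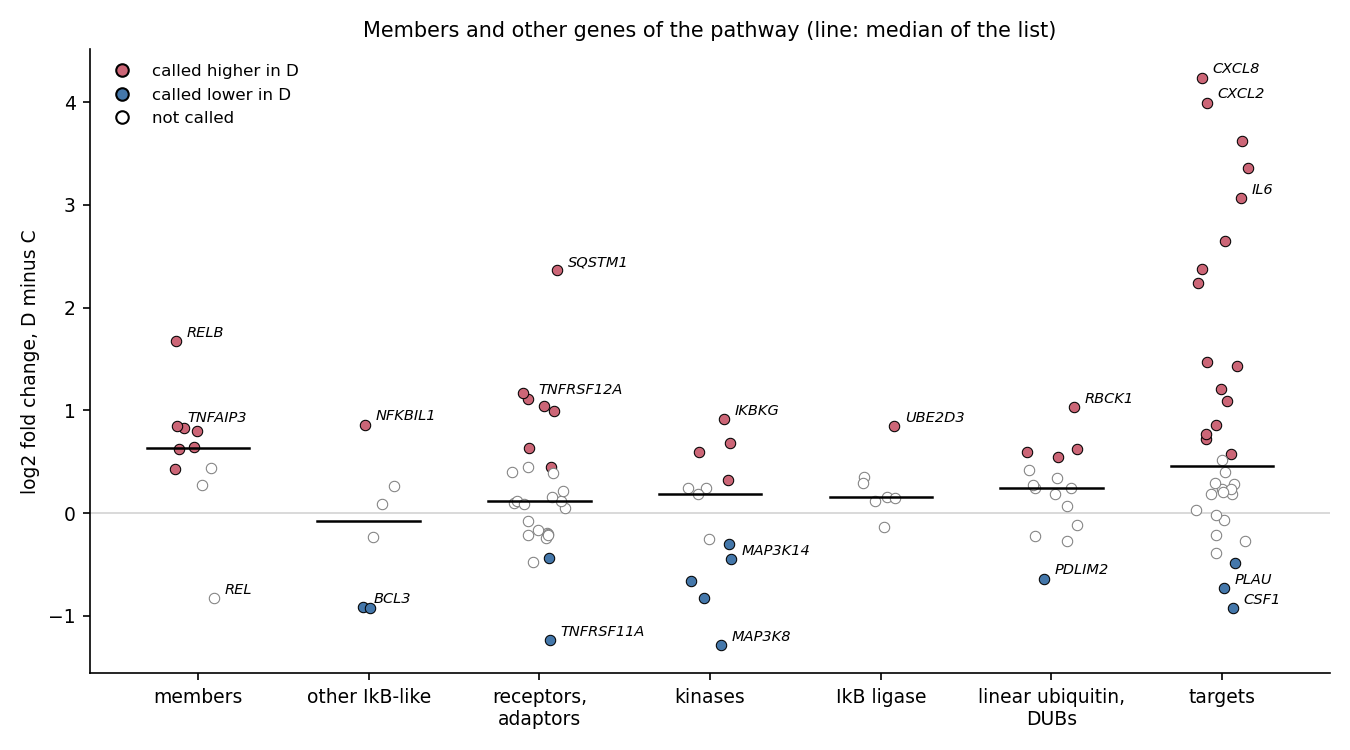
Log2 fold change, D minus C, of each tested member and of each tested gene of 6 other lists of the pathway, coloured by the edgeR call, with a line at the median of each list. The members have a median of 0.63 and the targets of 0.46. The list of kinases and their partners, labelled kinases, holds both rises (IKBKG, 0.91) and falls (MAP3K8, −1.28).

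Known NF-kB targets outside the family were read next to the members. Of 40 symbols, 39 were in the tables used here and 34 were tested; 16 rose and 3 fell, with a median log2 fold change of 0.46, where 26.8% and 27.7% of all genes were called. Several of these genes have other known inducers, and the list overlaps genes already known to differ between these libraries. CXCL8, a neutrophil chemokine, had 2.41, 1.94 and 2.04 CPM in C and 37.9, 39.1 and 43.8 CPM in D (4.24 ± 0.15). Among targets whose mean log2 CPM reached 1, CXCL2 (3.997 ± 0.28), CXCL3 (3.63 ± 0.19) and the cytokine gene IL6 (3.07 ± 0.20) followed. All 4 had low levels in C, between 0.256 and 2.41 CPM per library. CSF1, a macrophage growth factor, fell from 577 ± 22.8 to 303 ± 25.6 CPM (−0.93 ± 0.11), the urokinase gene PLAU from 426 ± 9.41 to 257 ± 21.8 CPM (−0.73 ± 0.10) and SDC4, a membrane proteoglycan, from 194 ± 4.84 to 138 ± 10.3 CPM (−0.49 ± 0.10). TNF itself was below the filter on low counts, as were LTB, CXCL10, CCL20 and LCN2.

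RELB, the member with the lowest p, was compared with 9551 other genes of mean log2 CPM of at least 3 for the likeness of their pattern, as the root mean square distance of log2 CPM relative to the C mean over the 6 libraries. The 3 nearest were YJU2 (0.0715), WDR74 (0.0722) and BLVRB (0.0737). Their log2 fold changes were 1.68, 1.62 and 1.65. In all 3, as in RELB, D replicate 3 was the highest library and D replicate 2 the lowest of the D group. The 3 genes were picked for their likeness over these same libraries. The shared changes and order thus follow from the selection and are no separate result.

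Markers of other cell types were read in the same libraries, since REL and NFKBIE are known from lymphoid cells. Of 7 lymphoid markers, 6 stayed below 1 CPM in all libraries, and the summed level of the 7 was 1.99 to 2.92 CPM in C and 1.35 to 1.76 CPM in D. Of 7 macrophage markers, CD14, AIF1 and TYROBP stayed below 1 CPM in all libraries. The summed level, nearly all from CD68, was 495 to 516 CPM in C and 475 to 521 CPM in D. CSF1R had 16.3 to 17.4 CPM in C and 15.2 to 17.7 CPM in D, and LYZ 1.64 CPM or less. CD163 rose from 0.185 CPM or less in C to between 1.19 and 1.64 CPM in D. The 5 endothelial markers summed to 20.2 to 25.0 CPM in C and 14.3 to 15.5 CPM in D, with KDR at 0.170 CPM or less. PECAM1 was the highest, with 12.5 to 18.7 CPM in C and 10.4 to 12.3 CPM in D. CDH5 fell from between 3.74 and 4.78 CPM to between 0.508 and 0.624 CPM (−2.93 ± 0.22). VWF and TEK stayed at 2.14 CPM or less. The 6 epithelial markers summed to 80.8 to 90.0 CPM in C and 125 to 159 CPM in D. KRT8 had 40.2 to 46.5 CPM in C and 37.3 to 47.7 CPM in D, and KRT18 rose from between 35.9 and 41.2 CPM to between 61.1 and 85.6 CPM. EPCAM was at 0.364 CPM or less and KRT19 at 0.521 CPM or less. The splicing factor gene ESRP1 (4.06 ± 0.15) and CDH1 (1.87 ± 0.34) were higher in D. The part of these marker differences in the changes of the members was not tested.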

How the data were processed

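Per the labels' protocols, total RNA came from column purification, and a SMARTER mRNA kit gave the libraries. The authors deposited whole-number counts per gene symbol, not normalized, for each of 6 libraries, and FPKM values. Each FPKM equalled the count divided by the library total and by 1 length per gene for 17144 of 17144 genes (relative tolerance 0.001); these lengths were used. Not given in the sources used here are aligner, counter and strand setting, so reads of overlapping antisense genes cannot be told apart. The labels name the mouse, and the submitters' processing notes the builds GRCm38 and mm10, but the symbols follow human naming, so no coordinates or sequences are given.

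The test was that of edgeR 4.0.16 in R 4.3.3 on the counts (filterByExpr, 12682 genes kept; TMM; quasi-likelihood F test, 2-sided, group as the only term; Benjamini-Hochberg adjusted p under 0.05 over all genes). The SE is the log2 fold change divided by the square root of F. The script was tested on simulated data. The filter left out 4462 genes and kept 99.952% of the counts. In each pair of libraries of a group the counts differed by more than sampling noise (chi-square per degree of freedom at least 6.48). Errors of CPM and FPKM are SD over 3 libraries; counts limit precision for low genes such as REL.

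Alternatives were DESeq2 1.42.0, limma-voom (limma 3.58.1), scaling by RLE, by upper quartile or by library size only, no low-count filter, at least 1 CPM in 3 libraries, a replicate block, leaving out each library, and a lowess correction for gene length (span 0.4). FPKM was tested with limma-trend as log2(FPKM + 1), filtered at FPKM above 1 in 3 libraries or unfiltered, and as log2(FPKM + 0.1), filtered. The members and lists were chosen with earlier results of these data known. Named were all members, the 3 IkB kinase genes and, per list, up to 4 called genes per direction with the largest change and a mean log2 CPM of at least 1. TAB1 and the genes below the filter were named after their values were seen, to resolve a count. A marker of the line that was on the lists is not reported here.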

Additional observations from a re-analysis of the deposited data

How the results depend on the processing

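Under 18 alternatives, the 10 members kept their direction in all 178 fits that gave a value; 151 also kept their side of the threshold, 16 lost a call (NFKB1, NFKBIA, NFKBIE and TNFAIP3) and 11 gained one (REL, RELA and NFKBIZ). The other 31 named genes kept their direction in 554 fits, with 22 calls lost and 3 gained. With log2(FPKM + 1) and log2(FPKM + 0.1), 2213 and 2209 genes were called higher, against 3393; with library size only 2586 were higher and 4449 lower, and all genes had a median log2 change of −0.17. Members called higher were 3 with log2(FPKM + 1) and no filter, where NFKB2, RELB and NFKBIB kept their calls, and 5 with either FPKM pseudocount under the filter. DESeq2 called 1 member (REL) lower. Leaving out 1 library gave 4 to 9 members higher and 0 to 1 lower, 2627 to 3888 genes higher and 2780 to 3879 lower, 14 to 25 pathway genes higher and 6 to 13 lower. Pathway genes called higher were 30 with length trends removed; those called lower were 19 with library size only, 17 with either FPKM pseudocount under the filter and 18 without the filter. Without division by gene length, the inhibitor to subunit ratio was 0.543 in C and 0.591 in D, and the NFKB2 and RELB share 35.2% in C. The cause of these shifts was not tested.

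Whether the replicate numbers pair the libraries was not settled. The deviations of same-numbered C and D libraries correlated at 0.01, −0.40 and −0.37, and 0 of 6 libraries correlated best with their own number. Deviations within a group are tied to each other, and those among the D libraries followed gene length. The correlations are therefore not independent, and the check cannot tell paired from unpaired libraries. With the replicate block, 6 members were called higher and 0 lower (NFKB1, 0.44, lost its call), and 2694 genes were higher and 2977 lower.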
